A study of Mus musculus with 20 samples.

Results

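Clones 1 and 3 are separate derivatives of the SIMS line, which comes from the mouse salivary gland, and in both Zcchc8 was targeted with CRISPR/Cas9. Both carry the same genotype label, Zcchc8 KO, and the comparison between them measures how far separate clones of that genotype differ. The 8 libraries compared, 4 of clone 1 and 4 of clone 3, were chosen by the clone number in their labels and are 8 of the 20 libraries of the series. The other groups are 4 libraries each of wild type, Btbd7 KO (the submitters' negative control, also edited with Cas9) and Zcchc8 KO clone 2. All lines grew in the same medium, DMEM with 10% FBS, and no treatment other than the editing is given. Each KO group is a single clone or line, so differences between clones 1 and 3 are differences between these 2 lines and cannot be assigned to the genotype. The edited alleles were not analysed here, and the labels do not say whether the 4 libraries of a clone came from separate cultures. The p-values below therefore measure the spread between these libraries, which may be technical. Total RNA was sequenced with a stranded kit and counted in genes and in PROMPT regions, which lie upstream of gene starts.

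ZCCHC8 holds together the NEXT complex (for nuclear exosome targeting). With the RNA-binding protein RBM7 and the helicase MTR4 (encoded by Mtrex), it hands short nuclear transcripts to the RNA exosome, which degrades them. Promoter upstream transcripts (PROMPTs) are such RNAs: they arise when polymerase starts in the antisense direction at a gene's promoter, and they are short-lived while NEXT is active. Extended forms of small nuclear RNAs (snRNAs, the splicing RNAs) and small nucleolar RNAs (snoRNAs, guides of RNA modification) are further known targets. Cultured lines are also known to change their chromosomes, and clones of a line can differ in this respect.

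The sequences shown are promoters of genes whose gene or PROMPT counts are described below, and an snoRNA that was higher in clone 1. Promoters are the RefSeq windows (GRCm38.p6) of 300 bases, 250 before and 50 after the gene start, written along the gene's strand. Eapp (chr12:54695845-54696144, minus strand), Ptgs1 (chr2:36230176-36230475, plus), Chac1 (chr2:119350992-119351291, plus), Asns (chr6:7693160-7693459, minus), Tgm1 (chr14:55713443-55713742, minus) and Tspan12 (chr6:21852484-21852783, minus) are shown. Capitals mark 3 motifs searched on both strands: AATAAA, the core of a polyadenylation signal, GGTAAG, a strong start of an intron, and TGATGNAA, the core of the amino acid response element. In the window of Chac1 the match to TGATGNAA is on the opposite strand, as is the match to GGTAAG in that of Tgm1. No match overlaps another motif in the printed windows.
Eapp: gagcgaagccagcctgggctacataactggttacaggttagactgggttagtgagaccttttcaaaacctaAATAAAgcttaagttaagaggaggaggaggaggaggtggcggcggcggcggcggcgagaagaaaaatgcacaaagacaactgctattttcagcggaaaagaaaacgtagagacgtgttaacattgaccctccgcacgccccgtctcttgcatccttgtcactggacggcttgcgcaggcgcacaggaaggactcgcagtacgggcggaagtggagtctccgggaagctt
Ptgs1: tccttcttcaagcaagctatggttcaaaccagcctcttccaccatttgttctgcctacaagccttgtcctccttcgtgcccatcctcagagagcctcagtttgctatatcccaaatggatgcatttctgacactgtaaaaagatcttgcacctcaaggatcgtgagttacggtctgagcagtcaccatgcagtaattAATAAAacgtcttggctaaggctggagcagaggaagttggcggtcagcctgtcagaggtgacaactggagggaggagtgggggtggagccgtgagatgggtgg
Chac1: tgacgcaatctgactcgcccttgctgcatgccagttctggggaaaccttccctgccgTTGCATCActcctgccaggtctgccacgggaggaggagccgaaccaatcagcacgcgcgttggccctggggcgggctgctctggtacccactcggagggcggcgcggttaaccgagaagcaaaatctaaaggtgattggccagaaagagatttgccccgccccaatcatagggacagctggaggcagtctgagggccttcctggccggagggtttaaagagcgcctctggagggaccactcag
Asns: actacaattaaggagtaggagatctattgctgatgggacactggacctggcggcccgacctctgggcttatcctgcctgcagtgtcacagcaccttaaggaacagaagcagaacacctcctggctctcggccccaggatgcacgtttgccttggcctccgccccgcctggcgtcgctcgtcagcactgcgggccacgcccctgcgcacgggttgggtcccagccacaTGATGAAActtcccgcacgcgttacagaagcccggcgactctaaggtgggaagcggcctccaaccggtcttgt
Tgm1: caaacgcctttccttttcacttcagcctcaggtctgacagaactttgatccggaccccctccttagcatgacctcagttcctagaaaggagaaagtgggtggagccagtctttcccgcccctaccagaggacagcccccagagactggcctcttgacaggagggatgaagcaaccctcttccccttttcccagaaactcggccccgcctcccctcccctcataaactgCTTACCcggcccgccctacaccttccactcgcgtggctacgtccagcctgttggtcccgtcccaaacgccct
Tspan12: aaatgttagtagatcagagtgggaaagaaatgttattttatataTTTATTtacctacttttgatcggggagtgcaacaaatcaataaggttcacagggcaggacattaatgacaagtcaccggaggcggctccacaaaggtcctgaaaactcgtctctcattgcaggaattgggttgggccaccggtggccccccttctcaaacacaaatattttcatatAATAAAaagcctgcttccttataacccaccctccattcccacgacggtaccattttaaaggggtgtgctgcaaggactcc
Of 27025 promoters with 1 window each, 20% held AATAAA, 9.36% GGTAAG and 4.05% TGATGNAA, so a match is a description of these letters only. The snoRNA Snora31 (chr14:75847905-75848034, plus strand, GRCm38, GENCODE M21) belongs to the H/ACA class, and capitals mark its ACA box, 3 bases before its end.
Snora31: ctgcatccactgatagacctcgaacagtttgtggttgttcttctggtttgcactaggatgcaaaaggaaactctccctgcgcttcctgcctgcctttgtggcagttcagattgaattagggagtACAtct

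Gene counts ran from 6833258 to 7683444 per library in clone 1 and from 7578027 to 14593557 in clone 3, so 2 of the clone 3 libraries (replicates 2 and 3) matched clone 1 in depth and the other 2 were deeper. Counts of replicates varied 2.89 to 6.29 times as much as sampling alone gives (chi-square over its degrees of freedom, each pair within a clone), so each was kept as a library of its own. Wild-type replicate 1 stood apart from all other libraries, with 14245 genes detected against 17442 to 20889, and leaving it out raised the calls between clones 1 and 3 from 2180 to 3191. It enters the comparison through the shared estimate of the spread and the filter on low counts, with 15556 genes tested without it and 15296 with it. Reads had no molecular identifiers, so limits from counting cover counting error only. Epithelial markers were present: 23 of 27 epithelial and duct markers were measured well enough to test, and their summed level was 5198 to 5973 CPM (read counts scaled to a common library size with edgeR's TMM factors) in clone 1 and 5041 to 5676 in clone 3. Of 16 salivary acinar markers, 3 could be tested and 8 had no count in the 8 libraries. None of 8 endothelial markers and 2 of 10 leukocyte markers could be tested.

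The edited gene did not separate the clones. Zcchc8 RNA was at 66.4, 60.7, 60.7 and 56.0 CPM in the 4 libraries of clone 1 and at 55.7, 60.7, 51.3 and 49.9 in clone 3. The groups overlapped, and the log2 fold change of 0.17 (clone 1 minus clone 3, SE 0.08) did not pass the test (edgeR quasi-likelihood test, adjusted p = 0.199). Wild type was at 64.4 CPM on average and clone 2 at 23.5. The level of the RNA therefore checks the label of neither clone, since an edited reading frame can leave transcription intact. The other NEXT subunits did not pass either: Rbm7 differed by 0.11 (adjusted p = 0.485) and Mtrex by -0.14 (adjusted p = 0.110). Mtrex lay at 107 to 114 CPM in clone 1 and at 118 to 121 in clone 3, without overlap. Of 12 tested RNA exosome genes edgeR called 0 (1 at an unadjusted p under 0.05, 0 with DESeq2). Of 17 genes of the PAXT, TRAMP and cap-binding adaptors 2 were called, both higher in clone 1 (11.8%, against 14.3% of all genes). These were Xrn2, a nuclear exonuclease (0.38, adjusted p = 1.18e-04, on chromosome 2), and Zcchc2 (0.27, adjusted p = 0.0416). Zcchc2 missed the threshold without clone 1 replicate 3 or 4 or clone 3 replicate 1, 2 or 4 (edgeR adjusted p = 0.102 to 0.144).

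Over the whole gene table, 2180 of 15296 genes tested (14.3%) differed between the clones at an adjusted p under 0.05: 1265 were higher in clone 1 (8.27%) and 915 lower (5.98%). Most of these differences were small, with a median absolute log2 fold change of 0.44 among the called genes, a 1.36-fold difference. More than 2-fold differences were called at 171 genes that were higher (1.12%) and 197 that were lower (1.29%). The values of the 4 and the 4 libraries did not overlap at 3408 genes (22.3%). The share called rose with counts. In the third of genes with the fewest counts 2.33% were higher and 2.86% lower, and in the third with the most 15.3% and 8.61%. Among protein-coding genes 10.3% were higher and 7.55% lower. A list of well-counted genes can therefore exceed the 14.3% of all genes without standing out from genes of like counts. At the depth of these libraries, simulated 2-fold differences were recovered at 61% of genes and 4-fold differences at 81%, with 200 changed genes among the 15296.

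The higher genes were concentrated on chromosome 2. There, 413 of 1119 tested genes were higher in clone 1 (36.9%) and 12 were lower, and the median log2 fold change was 0.32, a 1.25-fold difference. Chromosome 15 came next, with 146 of 585 genes higher (25.0%), 12 lower and a median of 0.23 (1.17-fold). On the other chromosomes 2.20% to 12.9% of genes were higher, and the medians lay between -0.12 and 0.06. Chromosome 2 held 7.32% of the tested genes and 32.6% of the higher ones, and chromosome 15 held 3.82% and 11.5%. Of all chromosome 2 genes, 86.4% had a positive log2 fold change, against 44% of genes outside chromosomes 2 and 15.

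The share of reads gave the same picture library by library. Chromosome 2 took 8.07%, 8.09%, 8.12% and 8.22% of nuclear gene counts in the libraries of clone 1 and 6.57%, 6.56%, 6.57% and 6.58% in those of clone 3. The spread within a clone was thus far smaller than the gap of 1.56 percentage points, 23.7% of the level in clone 3 (two-sided exact permutation test, p = 0.0286, the smallest that 4 against 4 libraries allow; adjusted p = 0.0357 over 20 chromosomes). Chromosome 15 took 5.15%, 5.20%, 5.17% and 5.19% in clone 1 and 4.49%, 4.49%, 4.43% and 4.50% in clone 3, again without overlap (difference 0.700 points, 15.6%; exact permutation test, p = 0.0286, adjusted p = 0.0357). In all, 16 of the 20 chromosomes passed this test, and the 14 of them other than chromosomes 2 and 15 differed by -7.15% to 5.24% of the clone 3 level. Shares sum to a fixed total, so a higher share of 1 chromosome lowers the rest.

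Which clone departed from the other lines differed between these chromosomes. On chromosome 2, the median level of the genes was above wild type by 0.30 (log2) in clone 1, and below it by 0.01 in clone 3, 0.05 in clone 2 and 0.02 in Btbd7 KO. On chromosome 15, clone 1 lay 0.01 below wild type and clone 2 was 0.02 above it, whereas Btbd7 KO was at -0.11 and clone 3 at -0.23. So clone 1 was the line apart on chromosome 2, and clone 3 was the lowest on chromosome 15. Other lines had such chromosomes too: Btbd7 KO stood at 0.22 on chromosomes 11 and 12, and clone 2 at -0.22 on chromosome 18. Chromosome 3 was below wild type in every line, at -0.23 in Btbd7 KO, -0.23 in clone 1, -0.25 in clone 2 and -0.12 in clone 3. Chromosome 13 stood at -0.21 in clone 1 and -0.14 in clone 3. These values are relative to wild type as a description, and the DNA of the lines was not analysed here, so chromosome number and expression of its genes cannot be told apart.

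**Figure D1:**
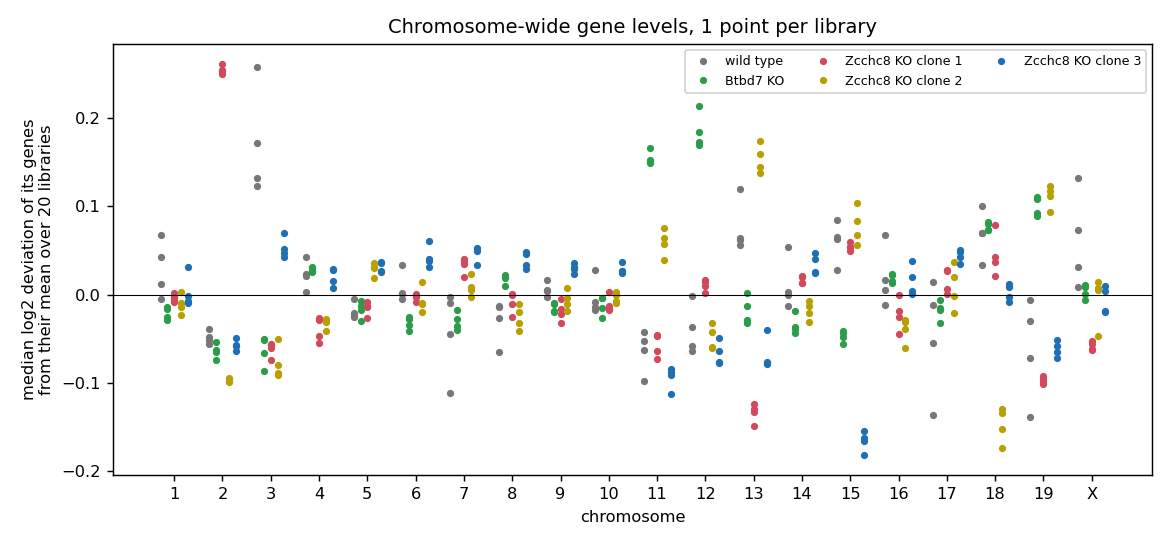
Median over the genes of each chromosome of the deviation of log2 CPM from its mean over 20 libraries (y axis), by chromosome (x axis), with 1 point per library and colours for the 5 lines. The 4 points of clone 1 sit at 0.25 to 0.26 on chromosome 2, where clone 3 sits at -0.06 to -0.05, and clone 3 sits at -0.18 to -0.15 on chromosome 15, where clone 1 sits at 0.05 to 0.06.

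Chromosome 2 was higher along its whole length. All 19 of its windows of 10 Mb with at least 10 tested genes had a median between 0.24 and 0.36, and the window from 70 to 80 Mb was among the 3 highest of all 261 windows (0.36, 23 of 49 genes higher). Chromosome 15 was less even: 8 of its 11 windows exceeded 0.2, whereas the window from 40 to 50 Mb, with 13 genes, was at -0.33. The window from 20 to 30 Mb on chromosome 15 was the highest of all at 0.38, but it too holds only 13 genes. Among the genes called higher on chromosome 2 the median log2 fold change was 0.42, and 24 of its 1119 tested genes were called more than 2-fold higher (2.14%, against 1.12% over all genes).

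Shorter stretches of other chromosomes also differed. The end of chromosome 11, from 110 Mb, had a median of 0.37, with 77 of 165 genes higher in clone 1, while the rest of that chromosome was at -0.02. The middle of chromosome 12, from 60 to 90 Mb, was at 0.27 with 60 of 208 genes higher, and the window from 160 to 170 Mb of the X chromosome was at 0.36 with 17 of 32 higher. In the other direction, 180 to 190 Mb on chromosome 1 was at -0.39, with 26 of 67 genes lower in clone 1 and 1 higher. The remaining named windows were small: 10 to 20 Mb on chromosome 5 (-0.40, 14 genes, 1 lower) and 20 to 30 Mb on chromosome 4 (-0.34, 16 genes, 3 lower). Against wild type, the stretch of chromosome 1 was at 0.22 in clone 3 and -0.09 in clone 1. At the end of chromosome 11 clone 3 was at -0.17, clones 1 and 2 at 0.17 and 0.18 and Btbd7 KO at 0.15. At the middle of chromosome 12 clone 1 was at 0.20, clone 3 at -0.04, clone 2 at -0.02 and Btbd7 KO at 0.34. In the window of the X chromosome all edited lines were below the wild-type mean, at -0.19 in clone 1, -0.20 in clone 2, -0.57 in clone 3 and -0.32 in Btbd7 KO. The SD over the 4 wild-type libraries was 0.14 in that window and 0.10 at the end of chromosome 11. It was 0.02 at the middle of chromosome 12 and 0.03 at the stretch of chromosome 1. The smaller distances from wild type in the first 2 are thus not far beyond its spread. The stretches were delimited after the window medians were seen and are given without a test.

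**Figure D2:**
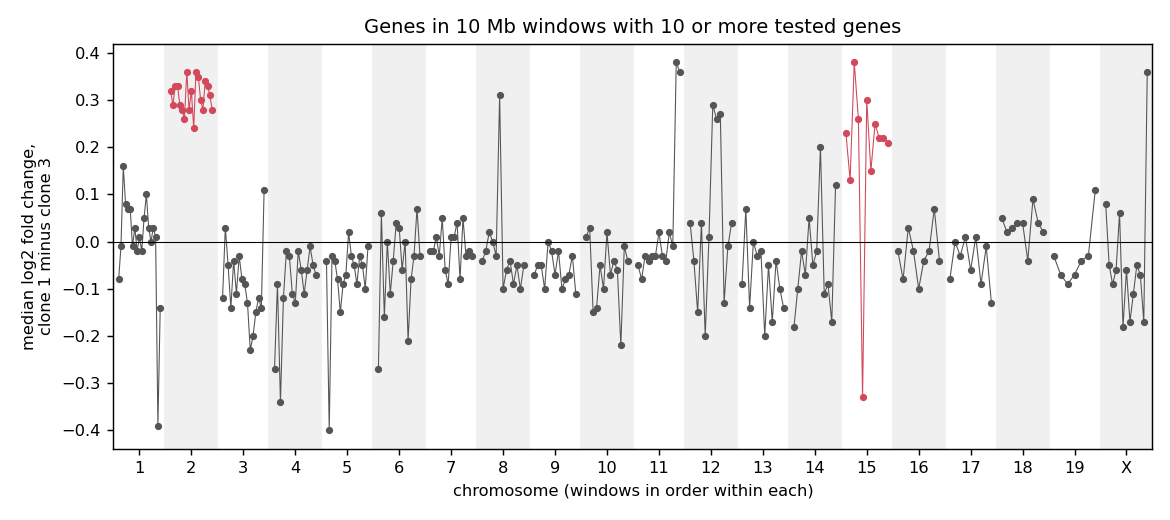
Median log2 fold change of genes, clone 1 minus clone 3 (y axis), in 10 Mb windows with at least 10 tested genes, in order along each chromosome (x axis), with chromosomes 2 and 15 in red. All 19 windows of chromosome 2 lie between 0.24 and 0.36, and the last 2 windows of chromosome 11 lie at 0.38 and 0.36.

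PROMPT regions followed the genes of their chromosome. Of 17655 regions tested, 790 differed (4.47%): 604 were higher in clone 1 (3.42%) and 186 lower (1.05%). Values did not overlap at 2133 regions (12.1%), and more than 2-fold differences were called at 169 higher (0.957%) and 75 lower ones (0.425%). Without clone 3 replicate 1 or 4, the deeper libraries of that clone, 401 and 402 regions were higher. Higher regions made up 76.5% of the calls, and 60.5% when the regions were scaled within their own table. On chromosome 2, 180 of 1243 regions were higher and 2 lower (median 0.44), and on chromosome 15 75 of 677 were higher and 0 lower (median 0.33; 5 lower at an unadjusted p under 0.05, 0 with DESeq2). These 2 chromosomes held 29.8% and 12.4% of all higher regions. Chromosome 2 took 26.0% more of the PROMPT counts in clone 1 and chromosome 15 took 19.1% more (exact permutation test, p = 0.0286 for both). Adjusted over the chromosomes these reached 0.0519, the smallest adjusted value in that family.

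Outside chromosomes 2 and 15, 706 genes were higher in clone 1 and 891 lower (44.2% of the calls higher), and 349 PROMPT regions were higher and 184 lower (65.5% higher). Which direction held more calls there depended on the scaling. With TMM factors set on genes outside these chromosomes, 811 genes there were higher and 774 lower, and with PROMPT counts scaled within their own table, 231 PROMPT regions there were higher and 271 lower. Most calls in either table were not shared by the other for the same gene, but shared calls were more frequent than among uncalled genes. In simulated counts the PROMPT fit recovered 41% of 2-fold changes, against 61% for genes. A missing PROMPT call therefore does not show that the PROMPT was unchanged. Of 11392 genes tested in both tables, 901 were higher as genes and 463 as PROMPTs. Both were higher at 152, which is 16.9% of the genes and 32.8% of the PROMPTs. Among genes not called, 3.11% had a higher PROMPT. In the lower direction 554 genes and 93 PROMPTs were called, with 29 in both. This is 5.23% of the lower genes, against 0.644% with a lower PROMPT among genes not called. Opposite directions were called at 2 genes.

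Among genes with a mean of at least 100 counts, those with the largest differences were lower in clone 1. Crb1, a polarity protein of photoreceptors and other epithelia (chromosome 1, 139197056 to 139377100), had 0, 0.136, 0 and 0 CPM in clone 1, and 22.5, 22.8, 25.5 and 20.8 CPM in clone 3. Clone 1 was at least 56.1-fold lower, computed against a floor of 3 counts per library (edgeR, adjusted p = 1.28e-09). Crb1 was also at 0 in wild type and at 0.104 CPM in clone 2, so clone 3 was the line that had it. Clone 3 was also the highest line for Rps6ka6, a ribosomal S6 kinase family gene on the X chromosome, which was at 0.395, 0.681, 1.17 and 0.388 CPM in clone 1 and 20.2, 20.8, 24.2 and 19.6 in clone 3 (log2 fold change -5.01, SE 0.45, edgeR adjusted p = 9.96e-09), with wild type at 3.59.

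In other genes clone 1 was the line apart. Acpp, which encodes prostatic acid phosphatase (chromosome 9), was at 2.37, 1.64, 1.17 and 0.517 CPM in clone 1 and 22.2, 25.0, 27.7 and 21.5 in clone 3 (-4.06, edgeR adjusted p = 2.04e-12), with wild type at 21.1. Manea, an endomannosidase of the Golgi, was at 0.922 to 2.71 CPM in clone 1 and 21.7 to 25.0 in clone 3 (-3.84, edgeR adjusted p = 4.30e-13), with wild type at 12.4. Tspan12, a tetraspanin that serves as a co-receptor in Norrin signalling, was at 3.69, 5.72, 2.93 and 4.52 CPM in clone 1 and 33.2, 34.3, 35.9 and 40.5 in clone 3 (-3.09, edgeR adjusted p = 7.86e-13), with wild type at 38.6 and clone 2 at 38.4. Absence of overlap between the clones was a condition for naming these genes and the higher ones below, so it is not a separate result. The PROMPT of Tspan12 fell with the gene, from 3.81, 3.40, 3.72 and 2.03 CPM in clone 3 to 0.263, 0.681, 0 and 0.259 in clone 1 (-3.36, edgeR adjusted p = 1.58e-05), and its promoter window printed above holds 2 AATAAA matches and no TGATGNAA.

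The X-linked Tceal8 and Gpc4, a cell-surface heparan sulfate proteoglycan, differed by -3.30 and -2.84 (edgeR, adjusted p = 1.94e-13 and 1.50e-11). On the X chromosome 66 of 439 genes were lower (15%) and 35 higher, against 5.98% lower over all genes. The transcription factor Plag1 fell by 2.26 on the log2 scale, and Plekhh2 by 1.91. Spp1, which encodes the secreted phosphoprotein osteopontin, was at 16.5, 17.6, 16.7 and 18.6 CPM in clone 1 and 74.4, 81.2, 71.9 and 70.4 in clone 3, while wild type was at 106 and clone 2 at 140 (-2.10, edgeR adjusted p = 3.27e-14).

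The protein-coding genes that were higher in clone 1 included Tgm1, Muc1 and Itga2. Tgm1, the transglutaminase that cross-links the cornified envelope (chromosome 14), was at 20.4, 27.3, 25.5 and 25.5 CPM in clone 1 and 4.52, 5.91, 4.48 and 3.38 in clone 3 (log2 fold change 2.45, SE 0.21, edgeR adjusted p = 5.58e-09). Muc1, a transmembrane mucin, was at 86.7, 83.3, 84.3 and 83.1 CPM against 23.9, 17.5, 30.1 and 26.4 (1.78, edgeR adjusted p = 9.61e-10). Itga2, the integrin subunit of the collagen receptor, was at 87.0, 67.6, 58.1 and 61.9 CPM against 19.8 to 23.9 (1.66, edgeR adjusted p = 2.97e-11). In each of these genes clone 3 lay below the mean of wild type (11.5, 40.8 and 40.4 CPM) and clone 1 above it. Foxf1, a mesenchymal forkhead factor, was at 18.8 CPM on average in clone 1, 5.93 in clone 3 and 5.59 in wild type (1.66, edgeR adjusted p = 1.35e-07). For this gene clone 3 lay near wild type. The remaining higher protein-coding genes named by the rule were Arhgef3 and Tnxb (both 1.55), Ccdc73 on chromosome 2 (1.52), the neutrophil chemokine Cxcl5 (1.51), the sialyltransferase St3gal1 on chromosome 15 and the aldehyde dehydrogenase Aldh3a1 (both 1.48).

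**Figure D3:**
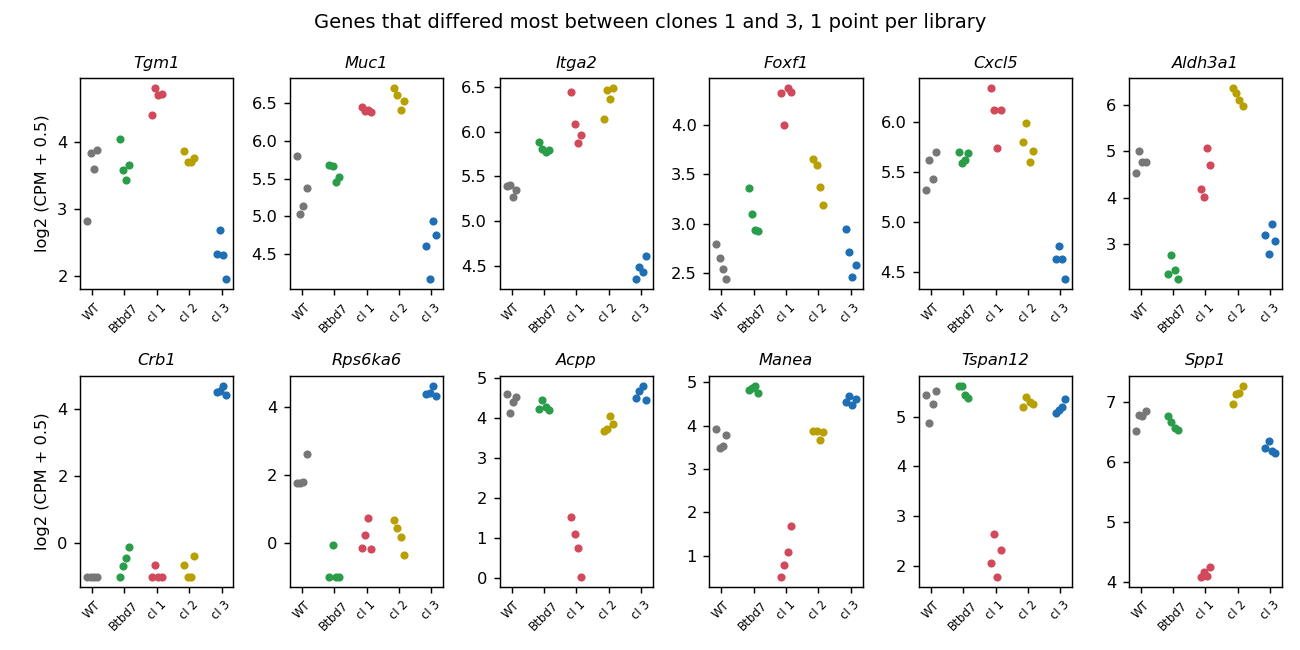
Level of 12 named genes as log2 of CPM plus 0.5 (y axis), in 5 lines (x axis: WT is wild type, Btbd7 is Btbd7 KO, cl 1 to cl 3 are the Zcchc8 KO clones), with 1 point per library and a separate y axis for each gene. The points of clones 1 and 3 do not overlap in any panel, which was a condition for naming these genes. Wild type lies near clone 1 for Crb1 and near clone 3 for Acpp and Tspan12.

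Matrix genes leaned lower in clone 1. Of 35 tested genes of the basement membrane and matrix list, 16 were lower and 5 higher, with a median of -0.29, against 14.3% called and a median of -0.01 over all genes. Among members with a mean of at least 50 counts, the lower ones with the largest differences were Spp1, the proteoglycan Bgn (-1.25), the fibrillar collagen Col1a1 (-1.07) and Col18a1 (-0.94). The higher ones included the network collagens Col4a1 (0.25) and Col4a2 (0.41) and the laminin Lama3 (0.29). All 21 called genes lay outside chromosomes 2 and 15. Fibronectin, Fn1, was at 3931 ± 250 CPM in clone 1 and 5042 ± 283 in clone 3 (SD, n = 4; -0.36, edgeR adjusted p = 1.07e-04). Wild type was at 2885 CPM, below both clones. Col1a1 was at 10.8 CPM in clone 1, 22.8 in clone 3 and 11.3 in wild type, whereas Spp1 was below wild type in both clones. Matrix proteases and their inhibitors were lower at 4 of 19 genes and higher at 0 (edgeR; 1 at an unadjusted p under 0.05, 0 with DESeq2). The lower ones included Timp3, an inhibitor of matrix metalloproteinases (-1.19), and the membrane protease Adam12 (-0.37). Timp3 was at 51.8 to 64.9 CPM in clone 1 and 125 to 137 in clone 3. Of 20 fibroblast and mesenchymal markers 9 could be tested, of which 4 were lower and 1 higher. The higher one was the transcription factor Snai1 on chromosome 2 (1.39), at 11 CPM on average in clone 1 and 4.13 in clone 3. The summed level of the list was 3635 to 4248 CPM in clone 1 and 4728 to 5406 in clone 3, and nearly all of it was Fn1. Cdh2, Lum, Pdgfrb, Thy1, Twist1 and Twist2 had no count in the 8 libraries. In RNA from whole cultures, fewer cells of a type and less RNA per cell cannot be told apart.

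Among 11 tested integrins 5 were higher and 1 lower (median 0.18, 54.5% called, against 14.3% of all genes). Itga2 and the leukocyte-type subunit Itgb2 (0.81, edgeR adjusted p = 6.96e-09) are among the 3 higher ones that lie outside chromosomes 2 and 15, and Itgav (0.35) lies on chromosome 2. The third outside them, Itgb4 (0.24), lies at the raised end of chromosome 11. Its call was lost under several alternatives, such as without clone 1 replicate 2 (edgeR adjusted p = 0.0919). Of 23 chemokine and cytokine genes 8 were higher and 0 lower (median 0.22, 34.8% called). With edgeR 0 were lower also at an unadjusted p under 0.05, and with DESeq2 0 were called lower. Of the 8 higher ones, 6 lay outside chromosomes 2 and 15. Besides Cxcl5, the chemokine Cxcl1 (1.09), the interleukin-1 antagonist Il1rn (0.93, on chromosome 2) and the NF-kB inhibitor Nfkbia (0.92) rose. Of the leukocyte markers tested, Cd68, a lysosomal protein of macrophages that other cells also make, was higher (1.05), and the summed level of that list was 13 to 17.2 CPM in clone 1 and 6.75 to 10.3 in clone 3. Most of that sum was Cd68 (11.4 CPM on average in clone 1 and 5.53 in clone 3) and Csf1r (3.73 and 2.85). Adgre1, Cd52 and Tyrobp had no count in the 8 libraries, and Ptprc had at most 4 in a library. The part of leukocytes in the chemokine levels was not tested. In the EGF and FGF pathway list, 6 of 24 genes were higher and 4 lower (41.7% called), with a median of -0.10. The receptors Fgfr1 (1.06) and Egfr (0.50), the ligand Nrg1 (0.97) and the IGF-binding Igfbp3 (0.89) rose, and Fgfbp1 (-0.52) and Igfbp7 (-0.48) fell.

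Most of the higher cell cycle genes lay on chromosome 2. Of 47 tested cell cycle and DNA replication genes, 8 were higher and 2 lower (21.3% called, against 14.3% of all genes). In the third of genes with the most counts, 15.3% were higher and 8.61% lower. Of the 8, 6 lie on chromosome 2, among them Aurka, Bub1 (0.49) and Pcna (0.52). Aurka, a mitotic kinase, was at 87.2, 83.3, 93.1 and 94.2 CPM in clone 1 and 53.4, 57.5, 56.0 and 62.7 in clone 3 (0.64, edgeR adjusted p = 3.83e-07). Outside chromosomes 2 and 15, 2 of 41 genes were higher, among them Birc5, an inhibitor of apoptosis at the raised end of chromosome 11 (0.51), and 2 were lower. The lower ones were the D-type cyclins Ccnd2 and Ccnd1, which drive entry into the cycle (-0.74 and -0.51, edgeR adjusted p = 3.11e-09 and 1.31e-06). Ccnd2 was at 219, 259, 232 and 229 CPM in clone 1 and 390, 428, 381 and 370 in clone 3. Among 30 p53 targets 5 were higher and 1 lower (20% called, against 14.3% of all genes), with a median of 0.08. The shares called in the cell cycle and p53 lists lay between that of all genes and that of the third with the most counts. Among the p53 targets, the mTOR inhibitor Ddit4 (0.63), the cell cycle inhibitor Cdkn1a (0.62) and the apoptotic Pmaip1 (0.46) rose, and the kinase Plk2 fell (-0.80).

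Genes of amino acid supply were split. Of 29 tested members of the amino acid and integrated stress response list, 7 were lower and 5 higher (41.4% called, against 14.3% of all genes). The median was -0.22. The lower ones held the transporters Slc7a5 (-0.98) and Slc7a1 (-0.46), asparagine synthetase Asns (-0.58) and the glutathione-degrading enzyme Chac1 (-0.82). Slc7a5 was at 81.9, 96.4, 111 and 110 CPM in clone 1 and 217, 216, 178 and 175 in clone 3, without overlap (edgeR, adjusted p = 6.43e-07). Wild type was at 195 CPM and clone 2 at 104, so for Slc7a5 clone 3 lay near wild type and clone 1 near clone 2. The higher ones held the cystine transporter Slc7a11 (0.96) and the transcription factor Cebpb on chromosome 2 (0.84). Chac1, also on chromosome 2, went against the direction of its chromosome. TGATGNAA was found in the promoters of Asns and Chac1, 2 of the 6 lower genes that had a promoter in the table, and in that of Slc7a11, 1 of 4 higher ones. Among the members that were not called it was found in 4 of 14.

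The other pathway lists had calls in both directions, against 14.3% of all genes called. Wnt and Notch genes were higher at 7 of 36, 4 of these on chromosomes 2 and 15, and lower at 4, with Wnt4 (0.85), Ctnnb1, which encodes beta-catenin (0.40), and the Frizzled receptor Fzd4 (-1.17) among them. TGF-beta and BMP genes were higher at 4 of 30 and lower at 5: the receptor Acvr1 (0.48, on chromosome 2) rose and the BMP target Id3 (-0.94) fell. Cholesterol and fatty acid synthesis had 5 of 33 genes in each direction, with the fatty acid synthase Fasn at 0.42 and the fatty acid desaturase Fads2 at -0.34. Of 24 interferon-stimulated genes, 1 was higher and 3 lower (16.7% called), led among those with ample counts by Dtx3l (-0.83). Immediate early genes were higher at 4 of 28 and lower at 1 (17.9% called), with Ier5 at 1.07 and the ERK phosphatase Dusp6 at -0.49. The shares of these last lists are near that of all genes. Imprinted genes were higher at 4 of 11, 3 of these on chromosomes 2 and 15, and lower at 3. Plagl1, a zinc finger factor of the imprinted network, was at -2.04, and Gnas, on chromosome 2, at 0.30. Of 3 tested salivary acinar markers 2 were higher in clone 1: Aqp5, the acinar water channel (0.35, on chromosome 15), and the chloride cotransporter Slc12a2 (0.73). Both were highest in wild type, at 176 and 183 CPM on average against 148 and 107 in clone 1 and 116 and 64.2 in clone 3. The marker Bhlha15 was at 1.38 CPM in clone 1 and 1.75 in clone 3.

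Cytosolic ribosomal protein genes were higher at 7 of 80 (8.75%) and lower at 0 (edgeR; 1 at an unadjusted p under 0.05, 0 with DESeq2), and histone genes higher at 2 of 70 and lower at 5 (10% called). Zfp zinc finger genes were higher at 20 of 326 and lower at 16 (11% called), with Zfp111 at 2.03 and Zfp467 at -1.56. Of 10 keratins 1 was called. The shares of these families lay below the 14.3% called over all genes. Of 23 epithelial and duct markers 3 were higher, among them the claudin Cldn4 (0.44) and the factor Elf3 (0.64), and 3 were lower (26.1% called).

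**Figure D4:**
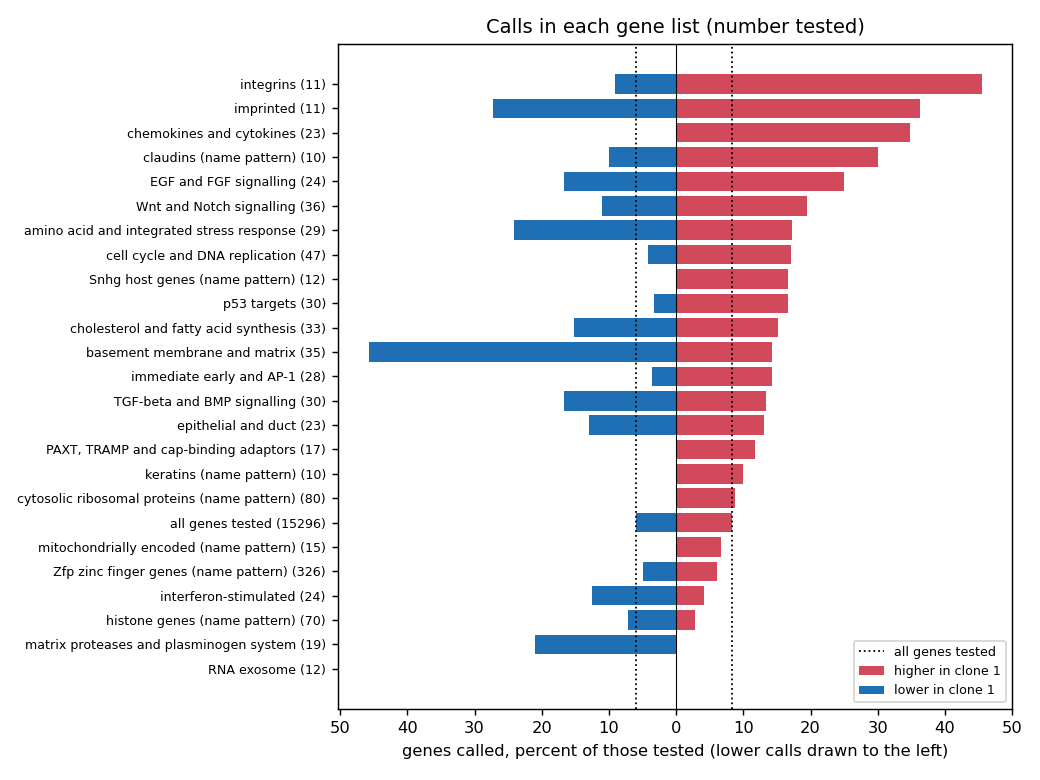
Share of the tested genes of each list that were called higher (red, to the right) or lower (blue, to the left) in clone 1 than in clone 3, in percent (x axis), for lists with at least 10 tested genes (y axis, number tested in brackets); dotted lines mark all genes tested, 8.27% and 5.98%. The matrix list extends farthest to the lower side, with 16 of 35 genes, and the integrins farthest to the higher side, with 5 of 11.

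PROMPT counts relative to gene counts were slightly higher in clone 1. In the median over 11392 genes, the log2 PROMPT-to-gene ratio was -2.20, -2.17, -2.20 and -2.14 in the libraries of clone 1, and -2.30, -2.36, -2.26 and -2.32 in those of clone 3. The difference of 0.13 was larger than the spread between libraries (two-sided exact permutation test, p = 0.0286, the smallest possible). Both clones were far above wild type (-3.37 ± 0.03, SD, n = 3, since wild-type replicate 1 is not in the PROMPT table) and Btbd7 KO (-3.36 ± 0.05, SD, n = 4), and clone 2 was at -2.37 ± 0.01 (SD, n = 4). The difference between clones 1 and 3 was 0.28 for the 3523 genes with no other gene within 5 kb upstream and 0.05 for the 7853 with a neighbour (exact permutation test, p = 0.0286 for each). It was 0.15 on chromosomes 2 and 15 (exact permutation test, p = 0.0571) and 0.13 elsewhere, so it was as large without those chromosomes. As a whole, the PROMPT table took 239 counts per 1000 gene counts in clone 1 and 233 in clone 3, a difference of 2.46% (exact permutation test, adjusted p = 0.0476 over 10 classes).

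Small nuclear and nucleolar RNAs were the classes that differed most. The snRNA genes took 1.10, 1.02, 0.947 and 0.916 of 1000 gene counts in clone 1 and 0.562, 0.614, 0.686 and 0.607 in clone 3, 61.4% more in clone 1. The snoRNA genes took 1.15, 1.13, 1.07 and 1.00 against 0.749, 0.787, 0.852 and 0.774, 37.6% more. Neither class overlapped between the clones, and the 2 clone 3 libraries of like depth, replicates 2 and 3, were also below all of clone 1 (two-sided exact permutation tests, adjusted p = 0.0476 over 10 classes). Clone 2 was close to clone 3, at 0.614 and 0.730, and wild type was lowest, at 0.384 and 0.473. Antisense genes were 12% higher in clone 1 (2.64 against 2.36), bidirectional promoter lncRNAs 7.49% higher and mitochondrially encoded genes 9.53% higher, each with an adjusted p of 0.0476 in the same exact permutation test. Protein-coding, lincRNA, TEC and processed transcript genes did not pass.

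Of 63 tested snRNA genes 14 were higher in clone 1 (22.2%) and 0 lower, and of 123 snoRNA genes 8 were higher (6.5%) and 0 lower, against 8.27% called higher over all genes. The share of single snoRNA genes called higher was thus below that of all genes. In both classes edgeR had 0 lower genes also at an unadjusted p under 0.05, and DESeq2 called 0. Snora31, whose sequence is given above, was at 162, 156, 149 and 118 CPM in clone 1 and 47.1, 61.9, 70.2 and 51.1 in clone 3 (1.35, SE 0.14, edgeR adjusted p = 9.52e-08), and at 13.1 in wild type. Absence of overlap between the clones was a condition for naming it. The minor spliceosome RNAs Rnu12 and Rnu11 and the U8 snoRNA Snord118 differed by 1.23, 0.48 and 0.70 (edgeR, adjusted p = 0.00176, 0.0314 and 0.000221). These 3 were chosen after their values were seen, as genes of known function in the class. An snRNA gene or its extended form cannot be told apart by these counts. The antisense transcript B930036N10Rik was at 124, 127, 143 and 113 CPM in clone 1 and 31.2, 38.7, 40.6 and 38.6 in clone 3 (1.77, edgeR adjusted p = 4.39e-11), with wild type at 9. The lincRNA Gm44275 (1.84) and the snRNA gene Gm22265 (1.31) complete the higher non-coding genes named by the rule, and Gm37534 (-1.50), AC102496.1 (-1.01), Gm47585 (-0.92) and the polymorphic pseudogene Atp10d (-0.67) the lower ones.

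The single PROMPT region with the firmest difference was that of Eapp, an E2F-associated phosphoprotein. It was at 96.0, 95.5, 99.8 and 96.2 CPM in clone 1 and at 25.0, 31.1, 32.7 and 35.1 in clone 3 (1.65, SE 0.11, edgeR adjusted p = 4.63e-18), while the gene was at 20.9 and 20.8 CPM (0.01). Wild type was at 10.3 CPM. An snRNA gene, Gm22513, lies 885 bases upstream of the Eapp start on the other strand (chr12:54696782-54696945), which was itself 1.29 higher (edgeR, adjusted p = 0.000143) at 11.1 to 13.1 CPM in clone 1 and 4.36 to 5.81 in clone 3. Its counts are smaller than those of the region, and whether the region's counts include longer RNA from that gene was not tested.

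Most of the other named PROMPT regions lay beside a gene that moved with them. Of the 12 named regions 8, Eapp among them, had a called gene within 5 kb upstream that differed in the same direction, and 3 had no gene there. Over all tested regions, 13312 had another gene within 5 kb upstream and 4284 had none, so having a neighbour is usual. The share of all regions beside a gene called in the same direction is not given here. Examples were Gm28976 (2.86) beside Psca (3.39), Mir7678 (2.30) beside Slpi (2.60), Gm30270 (-3.24) beside Tspan12, Gm48488 (-1.98) beside Gas1 (-1.95) and Gm26577 (-1.52) beside Myb (-1.12). Counts in such a region may include reads of the neighbour. The 3 without a neighbour were Ptgs1, Gm36535 and Mos. The PROMPT of Ptgs1, which encodes the cyclooxygenase COX-1 on chromosome 2, was at 6.46, 5.45, 6.44 and 6.20 CPM in clone 1 and 2.05, 1.26, 2.31 and 1.55 in clone 3 (1.77, edgeR adjusted p = 5.39e-05). The gene rose with it, from 107, 84.9, 104 and 105 CPM to 217, 202, 271 and 280 (1.27, edgeR adjusted p = 4.40e-10). Upstream of the lincRNA Gm36535 the region was higher by 1.72, with wild type at 0.411 CPM, and that of Mos, the oocyte kinase, fell by 1.98. The last named regions were 4932441J04Rik (1.63), Gm38268 (-2.41) and Gm14407 (-1.66).

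The test of the PROMPT-to-gene ratio called 23 of 11392 genes (0.202%), 13 with a higher ratio in clone 1 (0.114%) and 10 with a lower one (0.0878%). In simulated counts, with 120 changed genes among 11243, this test recovered 8.06% of 2-fold and 48.3% of 4-fold changes. Smaller shifts were thus mostly not detectable with this fit, and the part of depth in this was not tested. Without any 1 of the 8 libraries it called 7 to 12 genes, and fitted on the 8 libraries alone it called 125 with a higher ratio and 21 with a lower one. Besides Eapp (1.64, edgeR adjusted p = 3.85e-04), the highest were Cars, the cysteinyl-tRNA synthetase (1.63, adjusted p = 0.0209), and Chac1 (1.48, adjusted p = 0.0155). The PROMPT of Cars was at 7.25 to 10.1 CPM in clone 1 and 1.26 to 3.81 in clone 3, at gene levels of 82.0 and 90.4 on average. For Chac1 the PROMPT was at 3.95 to 6.15 CPM in clone 1 and 2.77 to 3.97 in clone 3, while the gene was lower in clone 1, at 27.7 to 35.6 against 42.7 to 73.3. The PROMPT of Chac1 alone was not called (0.70, edgeR adjusted p = 0.237), and its groups just overlapped. Chac1 has no gene within 5 kb upstream, and Cars has the transcript Gm15579 there, which was 1.59 higher (edgeR, adjusted p = 0.0478). The Cars call was lost without clone 1 replicate 1, 2 or 4 or clone 3 replicate 2 or 3 (adjusted p = 0.0520 to 0.0799), and the Chac1 call without clone 1 replicate 1, 3 or 4 or clone 3 replicate 1 or 2 (adjusted p = 0.0547 to 0.0732).

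The lowest ratios belonged to genes that rose more than their PROMPT. Tgm1 had a ratio of -1.77 (edgeR, adjusted p = 0.00117), since its PROMPT rose by 0.68, from 5.64 to 7.90 CPM in clone 3 to 9.88 to 12.1 in clone 1, and the gene by 2.45. Rabggta, within 5 kb upstream of Tgm1, was higher by 0.37 (edgeR, adjusted p = 0.0406). Gm44275 followed at -1.39 (adjusted p = 0.00698). Myo7a, an unconventional myosin, was at 41.8 to 52.8 CPM in clone 1 and 17.8 to 22.7 in clone 3 as a gene, whereas its PROMPT was at 58.5 to 65.1 and 53.2 to 70.2, with overlap (-1.19, adjusted p = 0.00698). With clone 3 limited to its 2 libraries of like depth, edgeR called 0 ratios (599 higher and 208 lower at an unadjusted p under 0.05), and Eapp was at 1.61 (adjusted p = 0.0596).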

How the data were processed

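Total RNA of SIMS cells was sequenced with a stranded kit, per the labels' protocols. The authors deposited raw read counts per gene (20 libraries) and per PROMPT region (19, without wild-type replicate 1). FastQC and STAR 2.7.3a appear in the submitters' processing notes. The counter, strand setting and reach of a PROMPT region are not given in the sources used here. Positions came from GENCODE M21 (GRCm38), which matched 55230 of 55471 identifiers.

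The quasi-likelihood test of edgeR 4.0.16 (R 4.3.3; glmQLFit, filterByExpr, TMM factors of the gene table) was run on the counts of all 5 groups. A call is an adjusted p (Benjamini-Hochberg) below 0.05. PROMPT and gene counts of a library entered 1 model with an interaction for the ratio. Shares and median ratios (pseudocount 0.5) were compared by two-sided exact permutation (scipy 1.17.1). Fits were tested on simulated data, where 5.33% of calls were false for genes and 6.11% for PROMPT regions. Replicate numbers did not pair libraries (correlation of same-numbered deviations -0.03 to 0.05).

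In each direction 10 protein-coding and 4 other genes (mean of at least 100 counts) and 6 PROMPT regions (at least 30) were named. These were called and did not overlap between the clones. Called, without a condition on overlap, were 3 ratios in each direction (at least 30 PROMPT and 100 gene counts) and the 4 largest per list and direction (at least 50). The 3 highest and 3 lowest windows were named too. Zcchc8, Rbm7, Mtrex and Btbd7 (log2 fold change -0.03) were named whether called or not. Members and lists were chosen with earlier results of these data known. Alternatives were DESeq2 1.42.0, other filters, scalings, libraries and depths, the replicate number as a block and leaving out each library. The other 6 tables were not used here, and a few list members are not reported here.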

Additional observations from a re-analysis of the deposited data

Results flagged for a closer look

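In groups of 4 libraries, the highest or lowest was compared with the nearest of the others by Dixon's test. Chance sets a library apart in about 1 group in 20; of 368 groups examined 14 held such a library, spread over 6 of the 8 libraries, 4 of them in clone 3 replicate 2.

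Mtrex was highest in clone 1 replicate 3, at 114 CPM against 107 to 108, and lowest in clone 3 replicate 2, at 118 against 120 to 121. Foxf1 was lowest in clone 1 replicate 2, at 15.5 CPM against 19.6 to 20.3. Crb1 had its only clone 1 count there, at 0.136 CPM. In clone 3 replicate 4, Tceal8 was highest at 74.7 CPM, Plekhh2 lowest at 16.1 and the PROMPT of Gm48488 highest at 14.0. The PROMPT of Eapp was highest in clone 1 replicate 3, at 99.8 CPM against 95.5 to 96.2, a small step beside its distance to clone 3. Zcchc2 was highest in clone 3 replicate 3, at 118 CPM against 104 to 106. In clone 3 replicate 2, Slc38a2 was lowest at 781 CPM, and Rpl38 was highest at 27.7 and Snhg20 at 45. TEC genes took 4.44 of 1000 gene counts in clone 1 replicate 4, against 4.05 to 4.09. Chromosome 15 took 4.43% of counts in clone 3 replicate 3, against 4.49% to 4.50%, and all 4 libraries of clone 3 stayed below clone 1.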

How the results depend on the processing

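The uncalled Btbd7 changed sign without clone 1 replicate 2 (range without 1 library -0.07 to 0.00; main -0.03). The 158 called named items kept their direction under every alternative and 107 kept the call in all; most losses came with fewer libraries. The numbers of genes and PROMPT regions stayed within 1.5 times under DESeq2 and at equal depth. Without 1 library, genes numbered 982 to 1054 higher and 732 to 817 lower, PROMPT regions 401 to 469 and 131 to 166, ratios 3 to 6 and 4 to 7, the Zcchc8 difference was 0.12 to 0.21 and the median ratio 0.12 to 0.15. Shares then cannot pass (0 of the chromosomes and 0 of the classes), since 3 against 4 gives at best an exact permutation p of 0.0571.

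Only the 8 libraries gave 1437 lower genes, 1005 higher PROMPT regions, and ratios at 125 higher and 21 lower; the 19-library table gave 1463 lower genes. An added alternative, clone 3 at like depth (2 libraries, so fewer samples), gave 717 higher and 497 lower genes, 197 and 82 PROMPT regions, and 0 ratios either way; chromosome 2 then had 268 of 1160 genes higher at the same median of 0.32. A log2 change over 1 left 171 and 197 genes, and 169 and 75 PROMPT regions. Outside chromosomes 2 and 15, also added, 706 genes and 349 PROMPT regions were higher. A mean of at least 10 counts gave 39 higher ratios, and PROMPT counts gave 0 chromosomes passing (smallest adjusted p 0.0519). The share of higher genes among calls moved from 58% to 64.2% with TMM set outside chromosomes 2 and 15 and to 50.8% without TMM, and that of PROMPT regions from 76.5% to 60.5% when scaled within their table. The cause was not tested. The numbers share no pairing: with the replicate block, 2178 genes and 794 PROMPT regions were called. The ratio test, fitted on all groups, recovered 8.06% of simulated 2-fold changes.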
